A study of Apis mellifera with 2 samples.

Results

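miR-279 and miR-996 are a pair of microRNAs, short RNAs that guide Argonaute proteins to messenger RNAs and lower their output. They were taken as the 2 entries, of 692 in the deposited count table, listed as ame-miR-279 and ame-miR-996, where ame stands for Apis mellifera, and they belong to the 53 entries with honey bee miRNA names. The table also holds a predicted entry that merely carries the same number as miR-279, with 6 queen and 0 worker counts. It is not a member. Small RNA came from larvae of a high royal jelly strain of the honey bee Apis mellifera ligustica, reared either as queens or as workers. Queen-destined larvae, 150 in each of 3 colonies, were moved into queen cups less than 18 h after hatching, and worker larvae of the same colonies were the other group. Larvae aged 73 to 90 h, 97 to 114 h and 121 to 138 h were collected, 40 to 60 of each caste per colony, and their RNA was combined over the 3 days into 1 queen library and 1 worker library. Whole larvae were used as far as the labels say, so fewer cells of a type and less RNA per cell cannot be told apart. With 1 pooled library per caste there was no replicate, no p-value was computed, and every interval covers counting error only.

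In Drosophila, miR-279 and miR-996 are neighbouring genes whose products share a seed, the bases at positions 2 to 8 by which a miRNA recognises its targets, and each can stand in for much of the work of the other. There miR-279 keeps carbon dioxide-sensing neurons from forming on the maxillary palp by repressing nerfin-1, which encodes a zinc finger factor of neuron precursors. It also limits JAK/STAT signalling, the pathway from the secreted ligand Unpaired through a membrane receptor and the kinase Hopscotch to the transcription factor Stat92E, for instance in migrating border cells of the ovary, where it represses Stat92E itself. These roles are known from the fly, and messenger RNAs of these targets were not measured here. Mature sequences of the honey bee miRNAs were not used here.

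Both names matched a gene in the RefSeq annotation of assembly Amel_HAv3.1, miR-279 as Mir279a and miR-996 as Mir996. Both genes lie on the same linkage group within 10 kb of each other, 0 annotated genes start between them, and both lie inside the span of 1 protein-coding gene, LOC724926. RefSeq lists 3 further genes of the same name, Mir279b, Mir279c and Mir279d, and 0 named entries of the table matched them. The sources used here do not say how reads that fit more than 1 of these genes were counted. A split of shared reads between miR-279 and miR-996 would move both of their values but leave their sum as it is, so the sum is given beside each member. Reads of Mir279b, Mir279c or Mir279d listed under either member would change the sum as well.

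Listed counts came to 2658259 for queen and 2318675 for worker larvae, so that 1 count equalled 0.376 CPM (counts per 1000000 listed counts) in queen larvae and 0.431 CPM in worker larvae. miR-996 had 111412 counts in queen larvae and 91839 in worker larvae. These amounted to 41912 CPM in queen larvae (41671 to 42153, exact Clopper-Pearson 95% interval) and 39608 CPM in worker larvae (39358 to 39860). It was thus among the most counted miRNAs of both castes. miR-279 had 7758 counts in queen larvae and 6457 in worker larvae. Its level was 2918 CPM in queen larvae (2854 to 2984) and 2785 CPM in worker larvae (2717 to 2853). It lay among the better counted of the named miRNAs in both castes, far under its neighbour. Their joint share was 4.48% in queen larvae (4.46 to 4.51) and 4.24% in worker larvae (4.21 to 4.27).

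Among the 53 named miRNAs, miR-996 ranked 5 in queen larvae and 6 in worker larvae. The next above it in queen larvae was miR-305 at 86904 CPM, and the next below was miR-31a at 22390 CPM. In worker larvae miR-31a, at 49862 CPM, stood directly above miR-996, and miR-71, at 28950 CPM, directly below it. The step of 1 rank between the castes thus came with the place of miR-31a, whose ratio of queen over worker CPM was 0.449. Further out, miR-1 (a muscle miRNA) and miR-276 were the second neighbours in queen larvae at 150096 and 21627 CPM, and in worker larvae miR-305 and miR-276 were the second neighbours at 58244 and 19008 CPM. None of these counting intervals overlapped that of miR-996.

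miR-279 ranked 17 in queen larvae and 20 in worker larvae. In queen larvae it stood apart from all of its nearest neighbours, with miR-iab-4 (a Hox cluster miRNA) at 3409 CPM and miR-317 at 3366 CPM above, and miR-190 at 1453 CPM and miR-2 at 1443 CPM below. In worker larvae its interval overlapped those of miR-2 at 2845 CPM and miR-92b at 2779 CPM, so these 3 could not be ordered at this depth. miR-13b at 3097 CPM above and miR-375 at 2495 CPM below were separate from it. Ligation of adapters and amplification do not treat all sequences alike, so the order of different miRNAs within a library need not be the order of their molecule numbers.

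**Figure D1:**
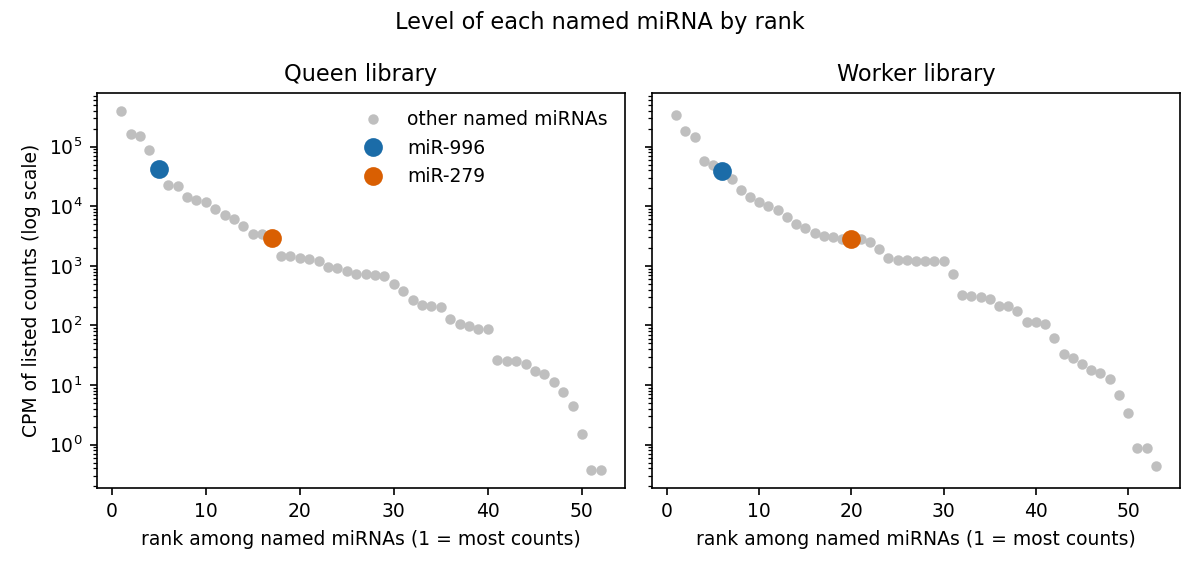
Level of each named miRNA with at least 1 count, in CPM of listed counts on a log axis, against its rank, in the queen library (left) and the worker library (right). miR-996 (blue) sits at 41912 CPM in queen larvae and 39608 CPM in worker larvae, and miR-279 (orange) at 2918 CPM in queen larvae and 2785 CPM in worker larvae.

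The first comparison was made within each library, where no scaling is needed. For every count of miR-279 there were 14.4 counts of miR-996 in queen larvae (14.0 to 14.7) and 14.2 in worker larvae (13.9 to 14.6). Put as a share of their summed counts, miR-996 made up 93.5% in queen larvae (93.3 to 93.6) and 93.4% in worker larvae (93.3 to 93.6). The intervals of the castes overlapped for either measure. The ratio in queen larvae over that in worker larvae was 1.01 (0.976 to 1.04, Woolf 95% interval), a difference in log2 ratio of 0.01 (−0.04 to 0.06). A difference between castes in the balance of the pair was therefore not detectable at this depth, and by counting error alone the interval bounds it to about 0.06 on the log2 scale. Variation between colonies was not measured and is not part of that bound. The handling of reads that fit both members is unknown and is not part of it either. If a fixed fraction of miR-996 reads were listed under miR-279 in both libraries, the ratios of the castes would come closer together. This was not tested. The ratio of about 14 is one of read counts, and it may be far from the molar ratio for the reason given above.

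The same measure was taken for all other pairs of named miRNAs with at least 20 counts each whose genes lie within 10 kb of each other, which gave 12 pairs of 13 miRNAs. In each pair the miRNA with more counts over both libraries was set over the other, so the sign of a difference depends on that order. Pairs within a cluster share miRNAs and are not independent of each other. The intervals of 11 of the 12 excluded 0, in 4 pairs with the larger ratio in queen larvae and in 7 with the larger ratio in worker larvae, and the median size of the difference was 0.80 on the log2 scale. Only miR-100 over miR-125, 2 members of the let-7 complex, also covered 0 among them, at 0.08 (−0.08 to 0.23). For comparison, let-7 (a timer of developmental transitions) over miR-100 was 3.06 in queen larvae and 1.66 in worker larvae, a log2 difference of 0.88 (0.84 to 0.93). miR-275 over miR-305 was 4.48 in queen larvae and 5.80 in worker larvae, a log2 difference of −0.37 (−0.38 to −0.36). miR-283 over miR-12 was 6.89 in queen larvae and 9.50 in worker larvae, with −0.46 (−0.54 to −0.39). miR-277 over miR-34 was 0.907 in queen larvae and 1.79 in worker larvae, with −0.98 (−1.32 to −0.65).

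In the mir-2 cluster, where miR-2, miR-13a and miR-13b are close relatives and miR-71 is a neighbour of another kind, the pairs differed between the castes in either direction. miR-13b over miR-13a was 36.6 in queen larvae and 110 in worker larvae, a log2 difference of −1.59 (−2.09 to −1.10) that rests on 67 queen and 65 worker counts of miR-13a. The other pairs with miR-13a had −0.83 (−1.32 to −0.33) for miR-2 and −1.15 (−1.64 to −0.66) for miR-71. miR-2 over miR-13b had 0.77 (0.68 to 0.85), miR-71 over miR-13b had 0.44 (0.38 to 0.51), and miR-71 over miR-2 had −0.32 (−0.38 to −0.26). let-7 over miR-125 had 0.96 (0.81 to 1.11). Of the 13 pairs, miR-996 over miR-279 had the smallest difference between the castes, though its interval overlapped that of miR-100 over miR-125. Whether the handling of reads shared by miR-996 and miR-279 bears on this place was not tested. These values are a description of 2 libraries.

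**Figure D2:**
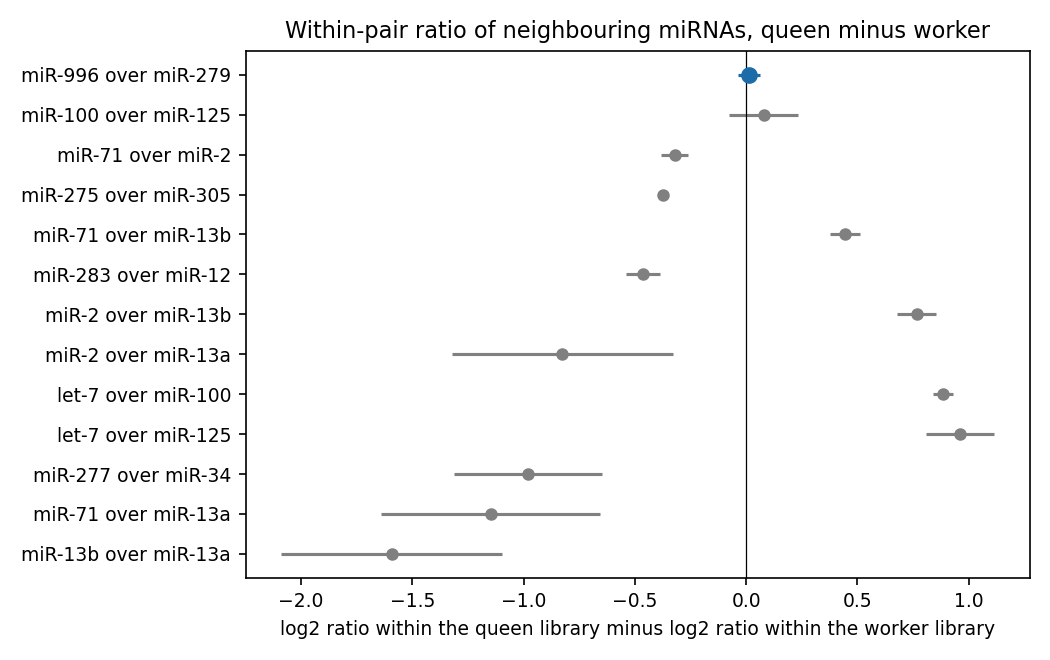
Difference between the queen and the worker library in the log2 ratio of neighbouring named miRNAs, for 13 pairs ordered by size, with Woolf 95% intervals of counting error as bars. miR-996 over miR-279 (blue) lies at 0.01 with its interval across 0, and 11 of the 12 other pairs (grey) lie away from 0.

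The second comparison asked whether the pair differed in level between queen and worker larvae. With scaling to the total of listed counts, the ratio of queen over worker CPM was 1.05 for miR-279 (1.01 to 1.08, exact conditional interval) and 1.06 for miR-996 (1.05 to 1.07). The sum of both, with 119170 counts in queen larvae and 98296 in worker larvae, had a ratio of 1.06 (1.05 to 1.07). On the log2 scale these were 0.07, 0.08 and 0.08. All 3 intervals lay above a ratio of 1 by a few percent and far under 2-fold.

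Which caste ratio is read off depends on the scaling more than on counting. All 692 entries were given to edgeR and DESeq2 for their factors. Both methods leave out entries with a count of 0 in either library. Of the 692 entries, 639 are predicted and hold 89383 queen and 110273 worker counts. How far entries with few counts set these factors was not tested. TMM factors of edgeR gave log2 ratios of 0.49 for miR-279 and 0.51 for miR-996. Median of ratios of DESeq2 gave 0.53 and 0.54, and totals without the 5 most abundant miRNAs gave 0.59 and 0.60. The last leaves out the counts of miR-996 itself, which is one of these 5, beside miR-275, miR-1, miR-184 and miR-305. Totals of named miRNAs alone gave 0.05 for miR-279, with an interval that reached 0 (−0.001 to 0.09), and 0.06 for miR-996. Totals without the pair gave 0.07 and 0.09. The ratio was thus above 1 for both under each of these 6 scalings and ran between 1.03 and 1.52, and neither reached 2-fold under any.

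**Figure D3:**
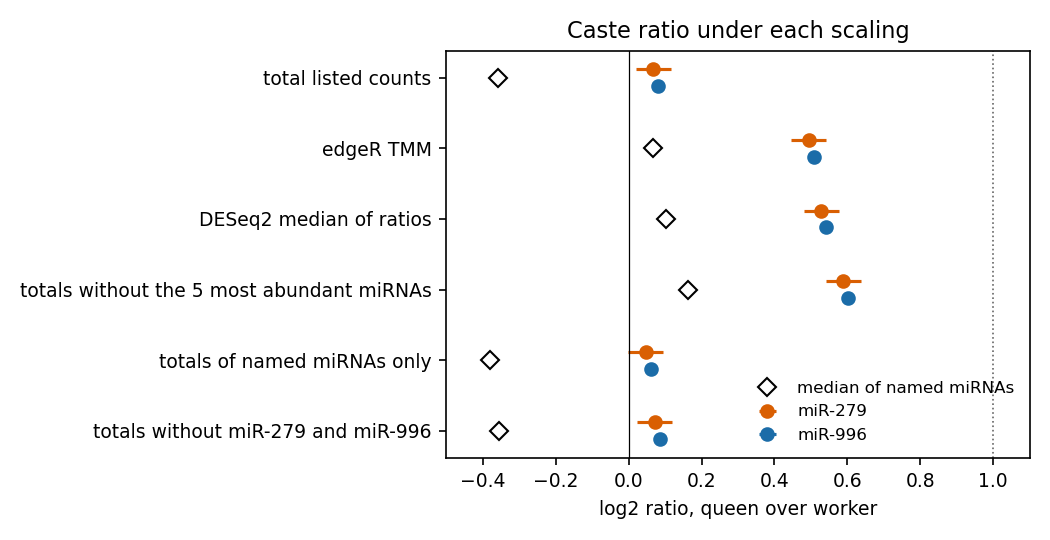
log2 ratio of queen over worker for miR-279 (orange) and miR-996 (blue) under 6 scalings, with 95% counting intervals as bars, and the median of the 49 named miRNAs that reached 20 counts (open diamonds). Both lie to the right of the median by the same distance in every row and left of the dotted 2-fold line.

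A miRNA with 20 or more counts in all was called when its caste ratio was at least 2-fold in either direction with 1 outside the interval. Of the pair, 0 of 2 were called, against 2.04% of 49 named miRNAs called on the queen side and 24.5% on the worker side. With TMM factors, median of ratios and totals without the 5 leaders, the queen side had 4, 4 and 5 calls in place of 1, the worker side had 9 in place of 12 with each, and the pair still had 0. In either direction 26.5% were called with scaling to the total, so 2 members without a call are close to what the background holds. The named miRNA with the largest ratio in the queen direction was miR-375, at 2.85 (2.76 to 2.93), with 18879 queen and 5784 worker counts. The one with the largest in the worker direction was miR-124, a neuronal miRNA, with 550 queen and 2743 worker counts and a queen over worker ratio of 0.175 (0.159 to 0.192).

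Positions relative to other miRNAs do not depend on scaling. By caste ratio miR-996 and miR-279 ranked 11 and 12 of the 49 named miRNAs, next to each other, with 10 above both and 37 below both. The median named miRNA had a log2 ratio of −0.36 with scaling to the total, and miR-996 and miR-279 lay 0.44 and 0.43 above it. Each of the other 47 was also set against the summed counts of the pair. Of these, 33 had a lower ratio of queen over worker than the pair with the interval excluding equality, 7 had a higher one, and 7 could not be separated from it. At 2-fold or more relative to the pair, 14 were lower and 1, miR-375, was higher. The queen over worker ratio of miR-375 was 2.69-fold that of the pair (2.61 to 2.78), and that of miR-124 was 0.165-fold (0.151 to 0.181).

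**Figure D4:**
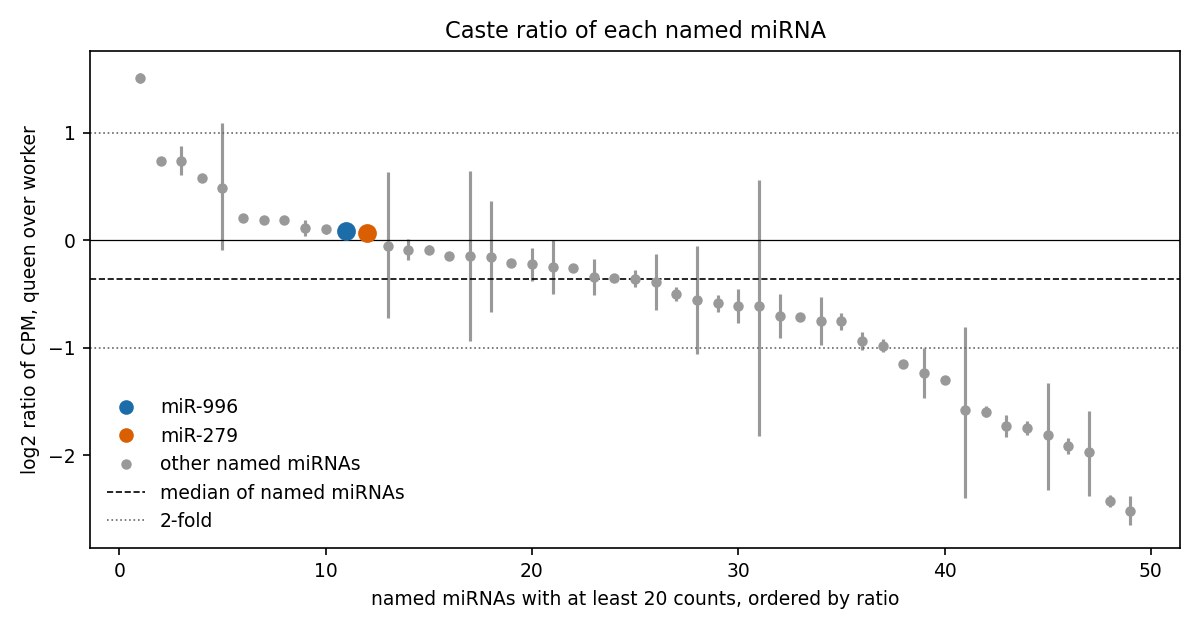
log2 ratio of queen over worker CPM of the 49 named miRNAs that reached 20 counts, ordered by ratio, with 95% counting intervals as bars, a dashed line at their median of −0.36 and dotted lines at 2-fold. miR-996 (blue) and miR-279 (orange) hold ranks 11 and 12, above the median and near 0.

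The other named miRNAs whose caste ratio lay nearest to the mean of the pair (0.07) were sought among the 33 with at least 1000 counts, by the absolute difference in log2 ratio over the 2 libraries. The nearest was miR-iab-4, with 9063 queen and 7368 worker counts and a log2 ratio of 0.10 (0.06 to 0.15). Next was miR-12, with 3523 queen and 2840 worker counts and 0.11 (0.04 to 0.19). Neither could be separated from the pair by counting error. miR-276 at 0.19, miR-184 at 0.19 and miR-275 at 0.21, the most abundant miRNA of both libraries, followed, and each of these lay above the summed pair with its interval excluding equality. miR-79, at −0.09 (−0.18 to 0.01), was the sixth and lay below it. Likeness over 2 libraries amounts to 1 number per miRNA and says little about a shared pattern.

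The pair was then set beside 12 miRNAs tied in animals to sensory organs or the nervous system, of which 10 had at least 20 counts. Of these, 0 were called higher in queen larvae and 4 in worker larvae, beside 1 (2.04%) and 12 (24.5%) of all 49 named miRNAs. Their median log2 ratio was −0.49, against −0.36 over all 49 named miRNAs and 0.07 for the pair. Relative to the pair, and so free of scaling, 8 of the 10 had a lower ratio, 1 a higher one and 1 could not be separated, which is near the 33 of 47 that were lower over all other named miRNAs. miR-263, the relative of Drosophila miR-263a, which protects sensory bristle cells from death, had 3222 queen and 15091 worker counts and a log2 ratio of −2.42. Its partner in that role, miR-263b, had 71 queen and 243 worker counts and −1.97. miR-124 stood at −2.52. miR-7, which in the fly eye helps photoreceptors to form, had 375 CPM in queen larvae and 1239 CPM in worker larvae, and −1.73. These 4 were the ones called.

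Of the same list, miR-9a, which in the fly keeps extra sensory organ precursors from forming, had 2497 queen and 2793 worker counts and a log2 ratio of −0.36. miR-8, which acts in growth and in neurons, had −0.21, and miR-125 and miR-100 had −0.22 and −0.15. The 1 member above the pair was let-7, with 37658 queen and 19684 worker counts and 0.74. miR-137 had 12 queen and 16 worker counts and −0.61 (−1.82 to 0.56), which could not be separated from the pair. Neither miR-932, with 4 queen and 8 worker counts, nor miR-219, with 0 queen and 2 worker counts, was assessed, and a count of 0 for miR-219 in queen larvae has an upper limit of 1.13 CPM when set at 3 counts of the total. With TMM factors, median of ratios or totals without the 5 leading miRNAs, let-7 passed 2-fold in the queen direction and the same number, 4, was called in the worker direction. Under these scalings 5 of the 10 log2 ratios were above 0 and 5 below, so the directions of miR-9a, miR-8, miR-125 and miR-100 are not fixed by these data.

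Of 6 miRNAs taken as tissue markers, among them miR-124 and miR-7 of the list above, 4 were called higher in worker larvae, beside 24.5% of all 49 named miRNAs. These were miR-124 and miR-7 for nervous system, miR-133 for muscle at −1.81 on 46 queen and 141 worker counts, and miR-281 for midgut at −1.58 on 20 queen and 52 worker counts. The other markers, miR-1 of muscle at −0.26 and miR-184 of germline and many larval tissues at 0.19, were not called. All 6 markers were counted in both libraries, and their summed level was 31.5% of queen counts and 32.6% of worker counts. Nearly all of that sum was miR-1, at 15.0% of queen and 18.0% of worker counts, and miR-184, at 16.4% and 14.4%. The sum therefore says little about the 4 called markers. The queen over worker ratio of the pair was 3.15 to 6.05 times that of the 4 called markers. These 4 were picked by a 2-fold call in the worker direction, so a large value follows from that choice. The value of 3.15, for miR-281, had a wide interval (1.88 to 5.28). Against the markers without a call, the ratio of the pair was 1.27 times that of miR-1 and 0.93 times that of miR-184. The part of tissue makeup in any of these values was not tested.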

How the data were processed

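Small RNA of pooled queen and worker larvae was ligated to adapters after an 18 to 30 nt gel fraction was cut, amplified by RT-PCR and sequenced on the Solexa platform, per the labels' protocols. The authors deposited raw counts, 1 whole number per miRNA and caste. The sources used here do not give the aligner, miRNA caller, genome build, annotation or handling of reads shared between miRNAs. The table has no sequences, arms or positions.

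Counts were divided by each library's listed total. Ratios carry exact conditional 95% intervals, shares Clopper-Pearson intervals, and ratios of ratios Woolf intervals. These treat reads as independent molecules, which PCR reads without molecular identifiers are not. A called ratio was at least 2 (or at most 0.5) with the interval excluding 1, among entries with at least 20 counts. A 0 was replaced by 3 counts for calling. edgeR 4.0.16 and DESeq2 1.42.0 were given all 692 entries of the counts deposited by the authors. They supplied scaling factors, from entries counted in both libraries, and no test. Intervals came from scipy 1.17.1 with numpy 2.4.6, tables from pandas 2.3.3 and figures from matplotlib 3.10.9, in Python 3.11.15 beside R 4.3.3, and the calling step was tested on simulated data.

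The text names the pair, their 2 neighbours per side by CPM, the 6 miRNAs of nearest caste ratio among those with at least 1000 counts, the most abundant one, the largest ratio per direction at a minimum of 100 counts, and members of the pair and sensory lists. The 6 tissue markers form a further list, of which miR-133 and miR-281 fall outside the naming rule. Pairs with a shared seed were not sought, since no sequences were used. The members and lists were chosen with earlier results of these data known.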

Additional observations from a re-analysis of the deposited data

How the results depend on the processing

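The log2 ratios of queen over worker kept their direction under every scaling run, but moved by more than counting error under most. For miR-279, miR-996 and their sum they were 0.49, 0.51 and 0.51 with TMM factors, 0.53, 0.54 and 0.54 with median of ratios, and 0.59, 0.60 and 0.60 with totals that left out the 5 most abundant miRNAs. With totals of named miRNAs, miR-996 and the sum had 0.061 and 0.060. These scalings add a constant to every log2 ratio. The share held by the pair became 4.64% of queen and 4.45% of worker counts among named miRNAs, and 7.35% and 6.40% without miR-275, as the total was smaller. The 1 named miRNA called on the queen side turned into 4 under TMM, 4 under median of ratios and 5 under totals that left out the 5 leaders. It turned into 3 when 1.5-fold was asked and into 0 when 4-fold was asked. No p-value was computed with any tool. The 12 called on the worker side turned into 20 for 1.5-fold and into 2 for 4-fold. The other 24 of 46 alternatives, which include a pseudocount of 1 and a 99% interval for the ratio of miR-996 to miR-279, stayed within the interval or within 1.5 times the count. No paired analysis was possible because queen and worker larvae gave 1 library each, and for the same reason no library could be left out. miR-279 and miR-996 had 14215 and 203251 counts over both libraries, so their counting intervals were narrow. Depth still bounds what can be said of their balance and of the rank of miR-279 in worker larvae. The missing replicates and the unknown handling of shared reads are further limits, which these intervals do not cover.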
